A study of Mus musculus with 32 samples.

Results

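The collagen genes are described here across 32 whole-brain messenger RNA libraries of mouse. Members were all gene symbols made of Col, a type number, the letter a and a chain number. The rule found 44 genes among 55291 symbols, the same 44 in each of the 4 deposited tables. They fall into 9 classes: 11 fibrillar, 6 basement membrane network, 6 beaded filament, 9 FACIT (fibril-associated collagens with interrupted triple helices), 3 short-chain network, 1 anchoring fibril, 4 transmembrane, 2 multiplexin and 2 other genes. Brains were collected on the day of birth (PND0) and at 3 embryonic stages named by day, E12.5, E14.5 and E16.5. Wild type animals (WT, Dhcr7+/+) were compared with knockout animals (KO, Dhcr7-/-), all of strain C57BL/6J, and each genotype had 4 libraries at each age. The gene Dhcr7 encodes the last enzyme of cholesterol synthesis, and its loss models Smith-Lemli-Opitz syndrome. The labels give no litter, sex or collection date and do not say whether a library is a single brain. The p-values therefore measure the spread between these libraries, which may be partly technical. Each stage is a deposited table of its own, so stage and table cannot be told apart. In whole-brain RNA, fewer cells of a type and less RNA per cell cannot be told apart either.

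Collagens are extracellular proteins of 3 intertwined chains. Fibrillar collagens form the cables of connective tissue, bone and cartilage, whereas the chains of type IV form the sheets of basement membranes, which line the brain surface and its blood vessels. FACIT collagens decorate fibrils, transmembrane collagens sit in the cell surface, and multiplexins carry fragments that can be released from vascular basement membranes. In the brain, neurons and glia make little fibrillar collagen, and the meninges, the vessel wall and the choroid plexus stroma are the usual sources. Col3a1, the chain of type III collagen, is also known as the ligand of Adgrg1 at the surface of the developing cortex.

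Promoter windows from RefSeq (build GRCm38.p6) were held for 35 of the 44 genes. The 4 windows of 250 bases upstream of the RefSeq transcription start that follow are shown for genes named below. Col3a1 had the highest level per kb of transcript, and Col25a1 rose in WT from E14.5 to E16.5. Col5a3 and Col6a3 had WT and KO libraries apart at birth, as did 11.7% of all genes tested. Capitals mark the CCAAT box (CCAAT), the GC box (GGGCGG) and the TATA box (TATAAA), each searched on both strands. The windows lie at chr1:45311288-45311537 on the plus strand for Col3a1, chr3:130180595-130180844 on the plus strand for Col25a1, chr9:20815068-20815317 on the minus strand for Col5a3 and chr1:90843972-90844221 on the minus strand for Col6a3. None overlapped an exon annotated in GENCODE M21. The Col25a1 window lies inside the gene as annotated there (chr3:130131501-130599877, plus strand), so it precedes the RefSeq start but not the GENCODE start.
Col3a1: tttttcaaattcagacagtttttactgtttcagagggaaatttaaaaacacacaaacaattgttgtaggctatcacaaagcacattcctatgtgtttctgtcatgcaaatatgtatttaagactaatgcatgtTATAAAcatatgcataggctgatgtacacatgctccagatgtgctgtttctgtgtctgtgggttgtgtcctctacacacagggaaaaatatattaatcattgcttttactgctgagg
Col25a1: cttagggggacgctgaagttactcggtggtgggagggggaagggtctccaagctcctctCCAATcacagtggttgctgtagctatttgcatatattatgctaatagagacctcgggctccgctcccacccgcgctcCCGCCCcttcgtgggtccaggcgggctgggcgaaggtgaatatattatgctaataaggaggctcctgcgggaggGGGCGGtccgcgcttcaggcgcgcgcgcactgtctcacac
Col5a3: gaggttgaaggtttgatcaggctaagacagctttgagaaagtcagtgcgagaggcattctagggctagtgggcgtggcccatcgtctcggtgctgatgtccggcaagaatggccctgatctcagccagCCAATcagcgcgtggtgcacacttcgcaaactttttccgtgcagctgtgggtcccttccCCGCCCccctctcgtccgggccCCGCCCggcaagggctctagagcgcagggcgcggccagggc
Col6a3: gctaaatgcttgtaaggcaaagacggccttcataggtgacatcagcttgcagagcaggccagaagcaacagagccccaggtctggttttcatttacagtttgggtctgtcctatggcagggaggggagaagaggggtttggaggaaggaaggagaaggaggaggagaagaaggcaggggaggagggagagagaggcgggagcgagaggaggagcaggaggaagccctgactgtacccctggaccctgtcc
The first base of the TATA box of Col3a1 lay 117 bases before the start. In Col25a1 a CCAAT box began 191 bases and a GC box 40 bases before it, with another GC box on the other strand. Col5a3 held a CCAAT box 122 bases before its start and 2 GC boxes on the other strand. Col6a3 held none of the 3 motifs in this window. A GC box was present in 21 of the 35 collagen windows (60%) and in 32.94% of 27025 windows over all genes. A CCAAT box was present in 12 of 35 (34.29%) against 34.46%, and a TATA box in 5 of 35 (14.29%) against 12.97%. A match describes the letters only.

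Type IV chains are arranged in head-to-head pairs. Col4a1 (chr8:11198423-11312826, minus strand) and Col4a2 (chr8:11312805-11449287, plus strand) overlap by 22 bases at their starts. Col4a6 and Col4a5, on the X chromosome, have starts 1308 bases apart. Col4a4 and Col4a3 are separated by 71 bases, chr1:82586850-82586920. These bases are printed because at birth the genotypes were apart in 1 gene of this pair and not in the other. Written on the minus strand, they begin next to the start of Col4a3 and end next to that of Col4a4. The heading below names the pair and not the direction of reading.
Col4a4 to Col4a3: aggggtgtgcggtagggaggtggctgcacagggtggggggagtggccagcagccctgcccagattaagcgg
None of the 3 motifs occurs in these 71 bases.

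Total counts ran from 13868087 to 28318857 per library. Levels are given as CPM (counts scaled to library size), and a count of 0 allows a level of up to 0.106 to 0.216 CPM. This limit, set at 3 counts, covers counting error only. Dhcr7 was lower in KO at every stage, with means of 67.1 ± 3.66 against 21.9 ± 4.47 CPM (SD, n = 4) at E12.5 and 91.0 ± 19.9 against 14.6 ± 1.94 CPM (SD, n = 4) at PND0. The neuronal genes Tubb3, Map2 and Dcx averaged 1757, 985 and 919 CPM over the 32 libraries, so the labelled tissue had its defining markers. The E12.5 libraries differed in genes of other tissues. Krt5, the keratin of basal skin cells, was at 65.0, 33.6, 0.808 and 29.7 CPM in WT libraries 1 to 4 and at 26.5, 1.54, 0.662 and 28.1 CPM in KO libraries 1 to 4. It was thus near 0 in WT 3, KO 2 and KO 3 and high in the other 5. At later stages it stayed at or below 1.13 CPM, except for 20.3 CPM in KO library 4 of E16.5. Genotype differences at E12.5 are therefore also given without those 3 libraries, and the WT change to E14.5 also with WT 3 as the only E12.5 library.

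Levels of different genes were compared as CPM per kb of the longest annotated transcript, averaged over the 16 WT libraries. The fibrillar chains Col3a1 (61.2) and Col1a2 (58.3) were highest, followed by the basement membrane chain Col4a1 (51.1), then Col1a1 (44.1), Col4a2 (37.4) and Col2a1 (29.9 CPM per kb). Col26a1, the leading gene of the 2 outside the main classes, stood at 20.6, and Col18a1, a multiplexin whose end fragment is endostatin, at 16.4 CPM per kb. The leading FACIT gene was Col9a3 at 13.8 and the leading beaded filament gene Col6a1 at 12.3 CPM per kb. The short-chain gene Col8a2 (5.36), the transmembrane gene Col23a1 (5.29) and the anchoring fibril gene Col7a1 (1.35 CPM per kb) led the low classes. Col10a1, the collagen of hypertrophic cartilage, was the lowest at 0.0263 CPM per kb, had 0 counts in 11 of 32 libraries and passed the filter in no comparison.

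**Figure D1:**
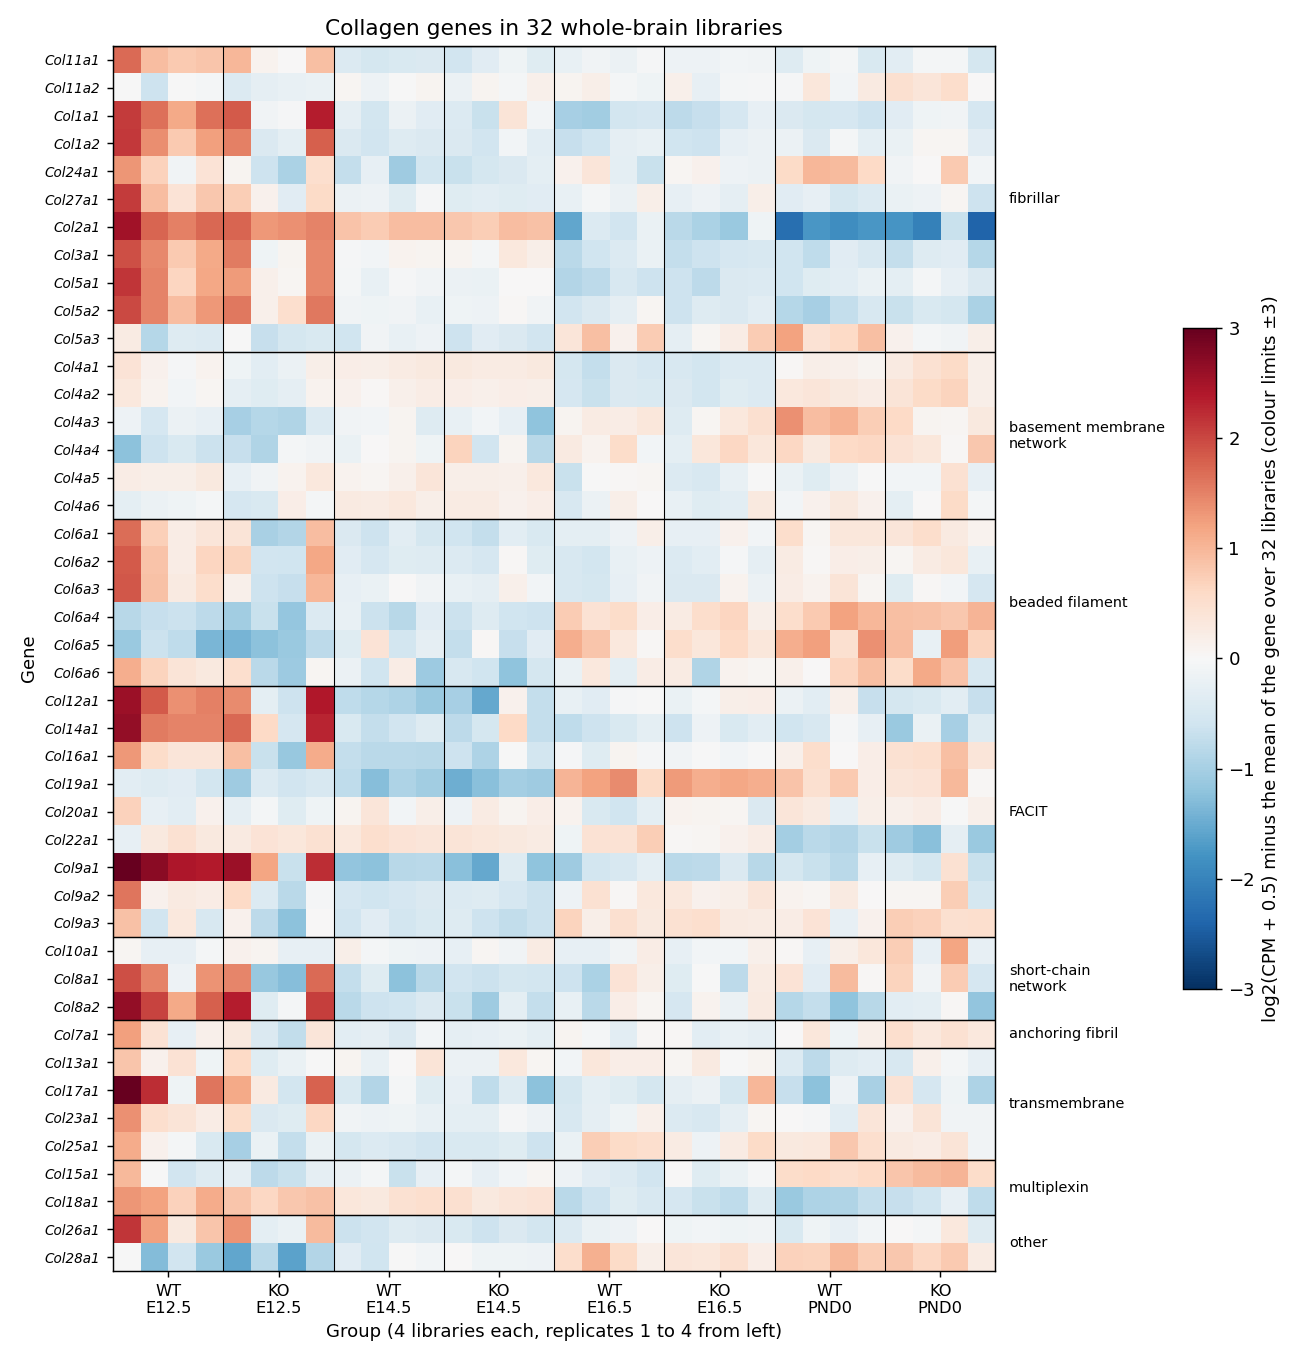
Rows are the 44 collagen genes by class and columns the 32 libraries by stage and genotype; colour is log2(CPM + 0.5) minus the gene's mean over all libraries, with limits of ±3. E12.5 libraries are mostly red in the fibrillar rows, with WT library 1 the darkest and KO libraries 2 and 3 pale, whereas Col2a1 runs from red at E12.5 to blue at PND0.

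Together the 44 genes took 0.336 to 0.735% of the counts in WT at E12.5. At E14.5 the WT share was 0.204 to 0.222%, at E16.5 0.148 to 0.197%, and at birth 0.181 to 0.191%. In KO it was 0.201 to 0.531% at E12.5 and 0.206 to 0.244% at E14.5. The KO libraries of E16.5 held 0.165 to 0.198%, and those of PND0 0.172 to 0.238%. The spread within a group was thus widest at E12.5 in both genotypes. Summed per kb, the fibrillar genes averaged 507 ± 174 in WT and 377 ± 209 in KO at E12.5, and 127 ± 7.96 in WT and 138 ± 21.2 CPM per kb (SD, n = 4) in KO at PND0. The basement membrane genes averaged 104 ± 12.3 and 86.4 ± 13.2 CPM per kb at E12.5, and 107 ± 3.51 and 124 ± 17.1 CPM per kb (SD, n = 4) at PND0.

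The E12.5 libraries differed widely within each genotype. Col3a1 was at 1043, 736, 464 and 593 CPM in the WT libraries and at 795, 246, 287 and 732 CPM in the KO libraries. Col1a1, a chain of type I collagen, was at 848, 626, 433 and 624 CPM in WT and at 708, 183, 192 and 1009 CPM in KO. In both genes KO 2 and KO 3 were the lowest of the 8 libraries and the other KO libraries lay within or above the WT range. Of the 39 members with a mean of at least 1 CPM over these 8 libraries, WT 1 held the highest value for 33. KO 2 held the lowest value for 14 and KO 3 for 18.

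Markers of tissues around the brain varied over the same libraries. The summed level of 15 meningeal markers, such as Dcn, Islr and Crabp2, was 515, 396, 294 and 341 CPM in WT and 470, 202, 212 and 343 CPM in KO. The sum of 15 cartilage and bone markers, of which 4 averaged at least 1 CPM (Alpl, Cnmd and Acan highest), was 56.0, 27.0, 26.3 and 27.4 CPM in WT and 31.7, 20.2, 18.1 and 27.9 CPM in KO. KO 2 and KO 3 were lowest and WT 1 highest for both sums. Single meningeal markers did not all follow their sum. Islr did, whereas Slc6a13 and Slc6a20a were lowest in WT 1 and Crabp2 was highest in KO 1. The 10 skeletal muscle markers, led by Myh3, summed to 142 CPM in WT 1 and to 10.4 to 42.7 CPM in the other 7 libraries. Mepe, a bone matrix gene, was at 0 in all 32 libraries. At later stages the meningeal sum ranged from 192 to 319 CPM and the cartilage and bone sum from 11.5 to 20.3 CPM.

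Type IV chains spread less at E12.5. Col4a1 was at 446, 367, 324 and 357 CPM in WT and at 304, 266, 295 and 378 CPM in KO. Within the WT group the highest library exceeded the lowest by a median of 1.32 times over the 5 basement membrane genes at or above 1 CPM, against 2.25 times over the 11 fibrillar genes. In KO the medians were 1.47 and 2.63 times. At E14.5 the median over all members at or above 1 CPM was 1.2 times in WT and 1.27 times in KO.

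**Figure D2:**
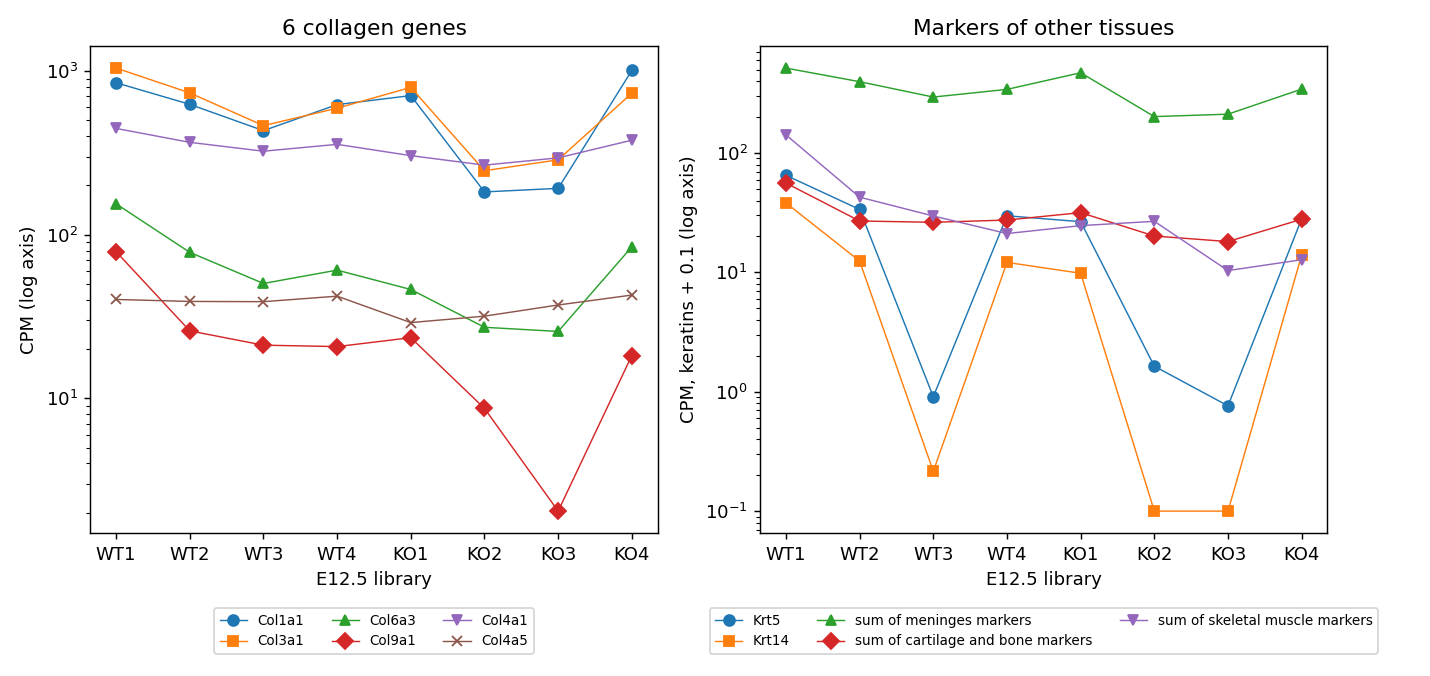
Levels in the 8 E12.5 libraries (log axes, CPM) of 6 collagen genes on the left and of keratins and summed marker lists on the right. Col1a1, Col3a1, Col6a3 and Col9a1 are lowest in KO 2 and KO 3, where Krt5 and Krt14 are also low, whereas Col4a1 and Col4a5 run nearly flat.

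The course in WT was tested between neighbouring stages with edgeR's quasi-likelihood test, and a gene was called at a Benjamini-Hochberg adjusted p under 0.05 over all genes tested. These 3 steps share groups of libraries, so they are not independent of each other. From E12.5 to E14.5, 29 of 42 tested collagen genes were called, 26 of them lower and 3 higher, where 57.8% of all 17942 genes tested were called (30.5% lower, 27.3% higher). The median collagen log2 fold change was -1.14, against -0.03 over all genes tested. In 26 collagen genes (23 lower, 3 higher) the 2 stages did not overlap, which held for 53.6% of all genes tested. With WT 3, the WT library low in Krt5, as the sole E12.5 library, the median over 43 tested members was -0.61, against 0.02 over all genes tested. This fit assumes that the lone library varies like those of E14.5. Without WT 1 the median was -0.73.

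Fibrillar genes made up the largest group of falls between E12.5 and E14.5. Of 11 tested, 9 fell and 0 rose, with a median log2 fold change of -1.56. Col3a1 went from the E12.5 values above to 264, 257, 290 and 287 CPM at E14.5. Every E14.5 library lay below every E12.5 library, giving a log2 fold change of -1.39 ± 0.23 (SE, adjusted p = 0.00105). The fall of Col1a1 was larger, at -2.03 ± 0.20 (SE, adjusted p = 6.29e-05). With WT 3 alone the changes were -0.76 and -1.47. Col11a2 and Col5a3, minor fibrillar chains, were the 2 not called, at 0.14 and 0.03.

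Among FACIT genes 5 of 8 tested fell and none rose. Col9a1, a chain of the cartilage collagen IX, was at 78.8, 25.8, 21.1 and 20.7 CPM at E12.5 and at 1.28, 1.23, 1.77 and 1.81 CPM at E14.5. WT 1 was far above the other 3 E12.5 libraries, yet all 4 lay above every E14.5 library. The log2 fold change of Col9a1 was -4.61 ± 0.56 (SE, adjusted p = 0.000204), and -3.81 with WT 3 alone. Col12a1, which coats type I fibrils, went from 204, 123, 87.9 and 97.8 to 19.8, 18.5, 17.7 and 15.5 CPM. The stages were far apart, with a log2 fold change of -2.86 ± 0.28 (SE, adjusted p = 6.20e-05), and -2.31 with WT 3 alone. Col9a3, the leading FACIT gene, was at 72.7, 26.3, 49.1 and 27.8 CPM and then at 26.1, 30.7, 26.6 and 28.4 CPM, which overlap, and was not called (adjusted p = 0.0979).

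Both tested short-chain genes fell from E12.5 to E14.5. Col8a2, a chain of corneal and vascular sheets, was at 96.3, 63.2, 33.7 and 53.8 CPM and then at 8.37, 9.60, 9.81 and 11 CPM. The groups did not overlap, and the log2 fold change was -2.69 ± 0.31 (SE, adjusted p = 0.000143), and -1.80 with WT 3 alone. Col7a1, which anchors skin to its bed, fell by 0.82 on the log2 scale (SE 0.30, adjusted p = 0.0433), and with WT 3 alone its change was -0.04. Col17a1, a transmembrane collagen of basal skin cells, was at 18.0, 4.97, 0.577 and 3.11 CPM at E12.5 and at 0.354, 0.140, 0.636 and 0.420 CPM at E14.5. It was lowest at E12.5 in WT 3, the library low in Krt5, whose value lies within the E14.5 range. It fell by 4.14 on the log2 scale (SE 1.02, adjusted p = 0.00797), and -0.60 (not called) with WT 3 alone. Whether skin RNA in the E12.5 libraries contributed to these differences was not tested beyond that fit.

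Beaded filament genes fell in 4 of 6 cases and rose in 1. Col6a1, a chain of the type VI microfibril, was at 138, 70.9, 49.8 and 54.8 CPM and then at 31.5, 27.7, 34.4 and 29.7 CPM, with no overlap. The change from E12.5 was -1.37 ± 0.32 (SE, adjusted p = 0.00611), and -0.70 with WT 3 alone. The related Col6a5 rose, from 0.478, 0.859, 0.751 and 0.322 CPM to 1.15, 2.31, 0.953 and 1.26 CPM, a log2 fold change of 1.27 ± 0.39 (SE, adjusted p = 0.0179). The groups did not overlap, but the levels are low and the gene was not called with WT 3 alone.

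Basement membrane genes did not take part in the E12.5 to E14.5 fall. None of 6 fell, 2 rose and the class median was 0.16. Col4a6 rose from 10.6, 11.5, 12.1 and 12.7 CPM to 15.9, 15.7, 16.6 and 15.1 CPM, without overlap, at a log2 fold change of 0.41 ± 0.08 (SE, adjusted p = 0.00210), and 0.38 with WT 3 alone. Col4a4, a chain best known from the kidney, went from 0.598, 1.17, 1.39 and 1.15 CPM to 1.73, 2.10, 2.22 and 1.85 CPM, a log2 fold change of 0.86 ± 0.25 (SE, adjusted p = 0.0137), and was not called with WT 3 alone. Col4a1 was at 383, 375, 393 and 405 CPM at E14.5, overlapping E12.5, and its change of 0.04 ± 0.09 (SE) was not called. With WT 3 alone Col4a1 and Col4a2 were called higher, at 0.26 and 0.21.

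Among the remaining genes, Col18a1 went from 196, 181, 127 and 169 CPM to 99.1, 95.7, 108 and 111 CPM, a log2 fold change of -0.72 ± 0.13 (SE, adjusted p = 0.00144) with no overlap. Its partner in class, Col15a1, was not called. Col26a1 was at 209, 110, 57.2 and 83.8 CPM and then at 29.5, 31.1, 35.6 and 34.5 CPM, and fell by 1.84 on the log2 scale (SE 0.37, adjusted p = 0.00319). Col23a1 was at 70.9, 38.5, 35.1 and 31.8 CPM and then at 24.9, 24.1, 24.6 and 23.1 CPM. It fell by 0.88 on the log2 scale (SE 0.25, adjusted p = 0.0144), and the groups did not overlap. With WT 3 alone the changes of Col18a1, Col26a1 and Col23a1 were -0.30, -0.82 and -0.55, all still called.

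**Figure D3:**
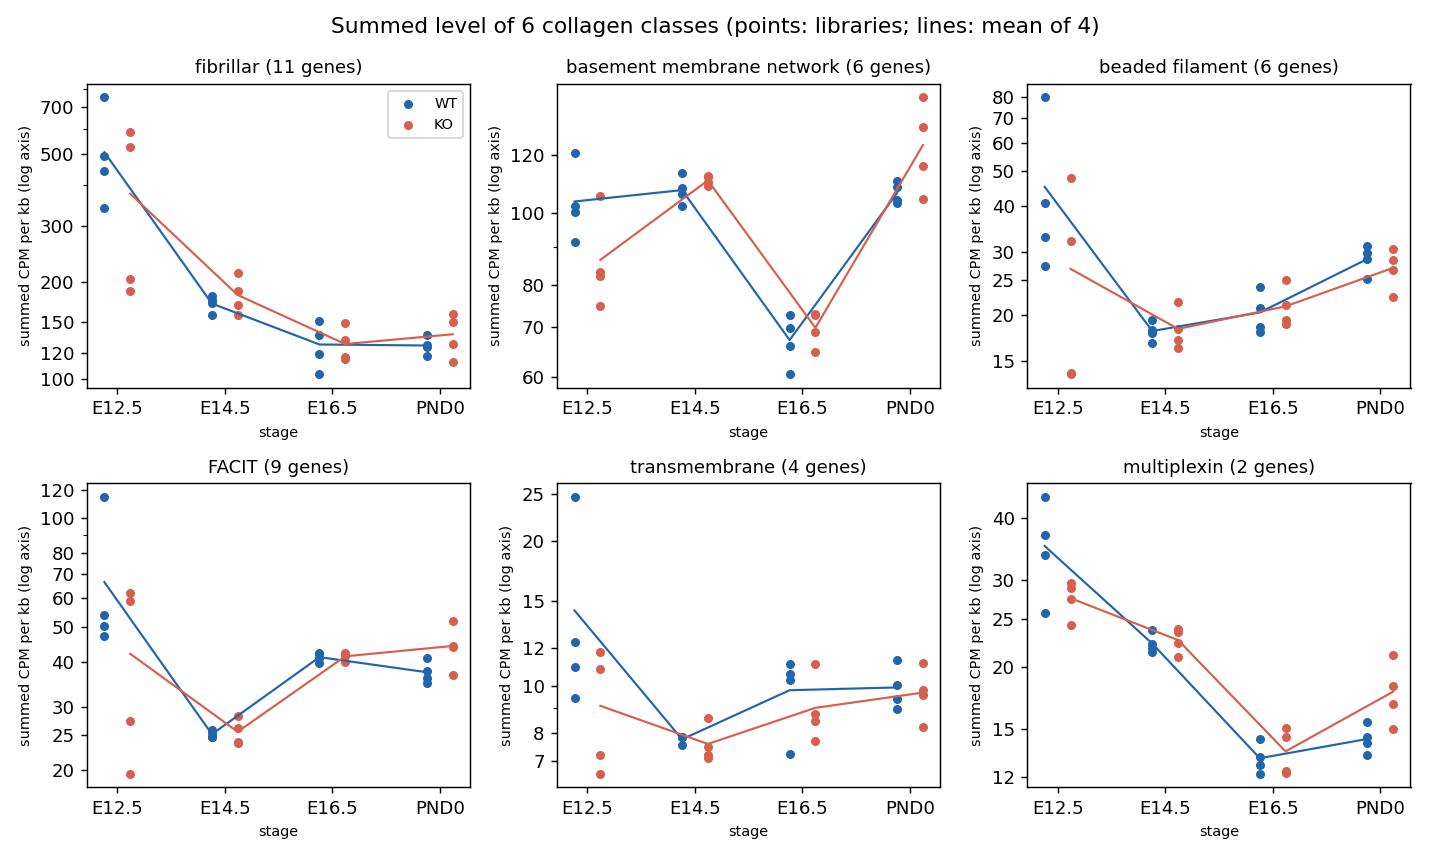
Summed CPM per kb of 6 classes by stage (log axes), with a point per library and a line through the mean of 4 for WT (blue) and KO (red). Fibrillar, beaded filament and FACIT sums are high and widely spread at E12.5, and the basement membrane sum dips at E16.5 in both genotypes.

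From E14.5 to E16.5, of 42 collagen genes tested, 22 were called, 14 higher and 8 lower, where 57.5% of all genes tested were called (29.3% higher, 28.2% lower). The median was 0.18, against 0.01 over all genes tested. In 18 collagen genes (11 higher, 7 lower) the stages did not overlap, as in 53.2% of all genes tested. A single fit of all 32 libraries called 12.

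Type IV chains fell in this step: 3 of 6 were lower and none higher. Col4a1 went from the E14.5 values above to 232, 201, 248 and 236 CPM. The stages were far apart, and the log2 fold change was -0.76 ± 0.06 (SE, adjusted p = 4.00e-08). Col4a2 moved by -0.64 ± 0.06 (SE, adjusted p = 1.89e-07). Col4a6, at 9.37, 11.5, 14.9 and 13.4 CPM at E16.5, lay below every E14.5 value and fell by 0.35 on the log2 scale (SE 0.12, adjusted p = 0.0197). Col18a1, at 44.8, 50.8, 60.8 and 56.4 CPM, fell by 0.95 on the log2 scale (SE 0.09, adjusted p = 5.88e-07), again with no overlap.

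Fibrillar genes split in the same step, with 3 lower and 2 higher of 11. Col2a1, the main cartilage collagen, was at 169, 157, 176 and 175 CPM at E14.5 and at 31.3, 70.1, 62.3 and 81.1 CPM at E16.5. WT 1 was the lowest of the E16.5 libraries, and all 4 lay well below E14.5, with a log2 fold change of -1.46 ± 0.27 (SE, adjusted p = 0.00402). In the WT libraries of E14.5 the cartilage markers Acan and Cnmd, from the list of 15, were at 0.0454 to 0.315 and 0.133 to 0.726 CPM. In those of E16.5 they were at 0.128 to 0.977 and 0.896 to 1.24 CPM. Which tissue the Col2a1 RNA came from was not tested. Col3a1 was at 154, 178, 202 and 234 CPM at E16.5 and fell by 0.51 on the log2 scale (SE 0.12, adjusted p = 0.00487).

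FACIT genes moved the other way: 5 of 9 rose and 1, Col20a1, fell. Col19a1, known from hippocampal interneurons, was at 0.310, 0.070, 0.227 and 0.168 CPM at E14.5 and at 2.28, 2.65, 3.17 and 1.54 CPM at E16.5. The E14.5 values lie close to what a count of 0 allows, and the E16.5 values were all clearly above them, with a log2 fold change of 3.65 ± 0.39 (SE, adjusted p = 7.66e-07). Col9a3 went to 62.2, 43.9, 55.1 and 48.0 CPM, above every E14.5 library, at 0.91 ± 0.10 (SE, adjusted p = 1.68e-06). Col8a2, of the short-chain class, was at 12.9, 8.41, 17.4 and 15.8 CPM and rose by 0.49 (SE 0.19, adjusted p = 0.0413), although the stages overlapped.

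Beaded filament genes rose in 3 of 6 cases, transmembrane genes in 1 of 3, and both genes outside the main classes rose. Col6a4 went from 1.73, 1.16, 0.953 and 1.55 CPM to 3.91, 3.0, 3.29 and 2.50 CPM, a log2 fold change of 1.24 ± 0.23 (SE, adjusted p = 0.000267). Col28a1, known from peripheral nerve, went from 0.841, 0.630, 1.18 and 1.09 CPM to 1.95, 3.05, 2.04 and 1.41 CPM, at 1.2 ± 0.29 (SE, adjusted p = 0.00242). Neither gene overlapped between the stages. Col26a1 went to 34.8, 40.9, 42.2 and 47.0 CPM at E16.5, overlapping E14.5, and rose by 0.34 (SE 0.09, adjusted p = 0.00370). Col25a1, a transmembrane collagen of neurons, was at 13.5, 14.7, 14 and 13 CPM and then at 17.1, 33.0, 29.6 and 28.3 CPM. It rose by 0.98 (SE 0.17, adjusted p = 0.000605), with WT 1 the lowest of the E16.5 libraries but still above E14.5. Its E12.5 values in WT had been 43.1, 21.7, 19.0 and 14.3 CPM, with a mean of 24.5 CPM against 13.8 CPM at E14.5.

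From E16.5 to birth 16 of 42 tested genes were called, 9 higher and 7 lower, where 53.2% of all genes tested were called (26.0% higher, 27.2% lower). The median was 0.14, against -0.01 over all genes tested. With counts offset for a length trend the division was 7 higher and 10 lower, and a fit of all 32 libraries called 10. In 11 collagen genes (7 higher, 4 lower) the stages did not overlap, as in 48.3% of all genes tested.

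Of the type IV chains that had fallen, Col4a1 and Col4a2 rose again. Col4a1 was at 342, 376, 369 and 350 CPM at PND0, all above E16.5, a log2 fold change of 0.59 ± 0.07 (SE, adjusted p = 1.30e-05). Col4a2 moved by 0.75 ± 0.07 (SE, adjusted p = 8.93e-07). Col4a3 went from 0.716, 0.864, 0.838 and 0.960 CPM to 2.49, 1.68, 1.87 and 1.42 CPM, with no overlap, at 1.08 ± 0.30 (SE, adjusted p = 0.00833). Col15a1, a multiplexin of vascular basement membranes, went from 21.6, 18.7, 17.8 and 15.9 CPM to 35.3, 36.7, 34.3 and 36.3 CPM. This rise of 0.89 ± 0.10 (SE, adjusted p = 7.74e-06) contrasts with Col18a1, which fell by 0.41 on the log2 scale (SE 0.11, adjusted p = 0.00459) to 36.2, 41.2, 41.4 and 47.4 CPM.

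Col2a1 was again the fibrillar gene that fell most, to 19.0, 27.5, 25.1 and 27.1 CPM, at -1.37 ± 0.29 (SE, adjusted p = 0.00443). Its 3 steps were thus -1.09, -1.46 and -1.37 on the log2 scale. Col24a1, another fibrillar chain, went from 2.73, 3.29, 1.92 and 1.34 CPM to 3.89, 5.36, 5.16 and 3.91 CPM, a rise of 0.91 ± 0.27 (SE, adjusted p = 0.0102) with no overlap. Col22a1, a FACIT gene known from the muscle-tendon junction, was at 16.54, 25, 24.6 and 30.9 CPM and then at 8.70, 10.1, 9.76 and 11.2 CPM. It fell by 1.34 on the log2 scale (SE 0.17, adjusted p = 1.39e-05). Col8a2 fell to 8.12, 8.98, 6.19 and 8.23 CPM, at -0.84 ± 0.20 (SE, adjusted p = 0.00273), although 1 E16.5 library lay within that range. Among beaded filament genes 3 of 6 rose, all chains of the common type VI trimer: Col6a1 by 0.41, Col6a2 by 0.45 and Col6a3 by 0.47.

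Partner chains were compared per kb. The ratio of Col4a1 to Col4a2 lay between 1.14 and 1.52 in all 32 libraries, with WT means of 1.44 ± 0.0314, 1.47 ± 0.0323, 1.36 ± 0.0192 and 1.21 ± 0.0491 (SD, n = 4) from E12.5 to PND0. The ratio of Col1a1 to Col1a2, the 2 chains of type I collagen, lay between 0.534 and 1.08, with WT means of 0.873 ± 0.116 at E12.5 and 0.601 ± 0.0634 (SD, n = 4) at PND0. That of Col9a1 to Col9a2 moved most, from 0.540 ± 0.105 at E12.5 to 0.0556 ± 0.00946 (SD, n = 4) at E14.5. The counting's use of strand is not known, so reads in the 22 shared bases of Col4a1 and Col4a2 are uncertain.

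Genes that process collagen were taken from 4 fixed lists. Of 14 genes for hydroxylation and glycosylation of the chains, 7 fell and 1 rose from E12.5 to E14.5, with a median of -0.57. Over all genes tested in this step 30.5% fell and 27.3% rose, with a median of -0.03. Folding and export genes fell in 4 of 7 cases and rose in 1 (median -0.85), and those for propeptide cleavage and cross-linking fell in 7 of 12 and rose in 2 (median -0.71). Of 9 tested collagen receptors 4 fell and 2 rose (median -0.17), and these 6 of 9 are close to the 57.8% called over all genes. Serpinh1, the collagen-specific chaperone HSP47, was at 803, 562, 399 and 498 CPM in WT at E12.5 and fell by 1.53 on the log2 scale to E14.5 (SE 0.20, adjusted p = 0.000291). It was named after its values were seen. In the same step the meningeal markers fell in 7 of 14 and rose in 2, the cartilage and bone markers fell in 4 of 7, and the skeletal muscle markers fell in 6 of 7. The part of these tissues in the collagen falls was not tested for the WT steps.

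The genotype comparison asked whether loss of Dhcr7 changes collagen transcripts. With edgeR's filtered fit no collagen gene was called at any stage, and neither was any gene of the 4 processing lists, whereas DESeq2 called 3 collagen genes at PND0. At E12.5, 0 of 39 tested members were called by edgeR's quasi-likelihood test and 0 by DESeq2, where edgeR called 0.0177% of all 16948 genes tested. The unadjusted p was under 0.05 in 6 members, and in 4.70% of all genes. In no member did the genotypes not overlap, against 2.73% of all genes.

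The log2 fold changes at E12.5 were below 0 in 37 of 39 tested members, with a median of -0.56 against 0.00 over all genes tested. Fibrillar genes had a median of -0.49, beaded filament genes -0.81, FACIT genes -0.56 and basement membrane genes -0.21. Col6a3 was at 154, 78.0, 50.4 and 60.8 CPM in WT and at 46.3, 27.2, 25.6 and 84.3 CPM in KO. The ranges overlap through KO 4, and the log2 fold change was -0.93 ± 0.46 (SE, adjusted p = 0.875). For Col9a1, with KO values of 23.5, 8.68, 2.05 and 18.3 CPM, it was -1.52 ± 0.67 (SE, adjusted p = 0.875). For Col3a1 it was -0.49 ± 0.41 (SE, adjusted p = 0.895). Without WT 3, KO 2 and KO 3 the changes of Col6a3, Col9a1 and Col3a1 were -0.60, -1.02 and -0.07. With the meningeal covariate they were -0.13, -0.45 and 0.23, so that Col3a1 changed sign. Leaving out WT 1 alone gave -0.47, -0.81 and -0.23, and leaving out KO 4 alone gave -1.42 for Col6a3. Leaving out KO 1 alone gave -0.79 for Col3a1.

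The size of these differences changed with the libraries and covariates used. Without WT 3, KO 2 and KO 3, the median over 40 tested members was -0.22, with 33 below 0, and 0 were called. Without WT 1 alone it was also -0.22, with 37 of 40 below 0. The median was -0.28 with the skin markers as a covariate, where 37 of 39 members were below 0. It was -0.09 with the cartilage and bone markers, where 31 of 39 were below 0. With the meningeal markers it was 0.01, and 20 of 39 members were above 0. No member was called in any of these fits. The meningeal markers themselves were below 0 in 12 of 13 tested at E12.5 (median -0.37), the cartilage and bone markers in 7 of 8 (median -0.71) and the skeletal muscle markers in 7 of 7 (median -0.95). Endothelial markers had a median of -0.09 and mural cell markers one of 0.06.

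**Figure D4:**
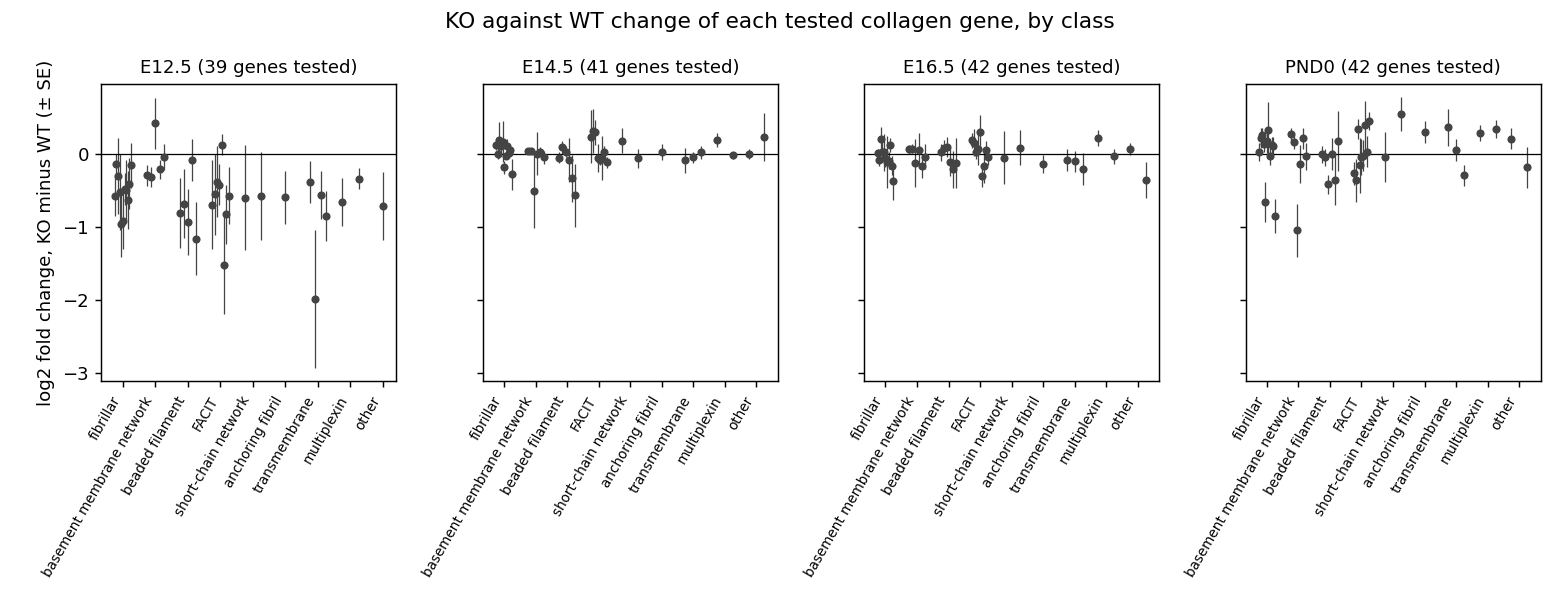
Log2 fold change of KO against WT with its SE for each tested collagen gene, by class, in 1 panel per stage. At E12.5 nearly all points lie below 0 with long error bars, at E14.5 and E16.5 they lie close to 0, and at PND0 they spread to both sides.

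At E14.5 and E16.5 the collagen differences between genotypes lay near 0. At E14.5, 0 of 41 tested members were called by edgeR and 0 by DESeq2, where edgeR called 0.527% of all genes, and the median log2 fold change was 0.02. The unadjusted p was under 0.05 in none, and in 8.73% of all genes tested. Col4a1 was at 405, 396, 398 and 409 CPM in KO, at 0.05 ± 0.03 (SE, adjusted p = 0.682). Col3a1 was at 288, 261, 335 and 308 CPM in KO, at 0.12 ± 0.09 (SE, adjusted p = 0.782). Both overlap with WT.

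At E16.5, 0 of 42 tested members were called by edgeR and 0 by DESeq2, where edgeR called 0.0462% of all genes, and the median was -0.03. Again none had an unadjusted p under 0.05, against 11.5% of all genes tested. Col3a1 was at 164.8, 175, 189 and 195 CPM in KO, within the WT range, at -0.09 ± 0.12 (SE, adjusted p = 0.808). Col4a1 was at 238, 228, 249 and 249 CPM in KO, at 0.07 ± 0.06 (SE, adjusted p = 0.710). In no member were the genotypes apart at E14.5 or E16.5, against 4.78% and 6.45% of all genes tested.

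At birth 0 of 42 tested members were called by edgeR, where it called 1.44% of all 17420 genes tested. DESeq2 called 3, Col9a3, Col5a3 and Col6a3, and edgeR without a filter on low counts called these and Col4a1, Col18a1 and Col1a1. The 1.44% does not apply to these other fits, whose shares over all genes are not given here. The unadjusted p was under 0.05 in 11 members and in 18.0% of all genes tested. The median was 0.05, with 24 members above 0 and 18 below. In 4 members the genotypes did not overlap, 1 higher and 3 lower in KO, as in 11.7% of all genes. These 4 genes were chosen after their values were seen.

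Col9a3 was at 45.9, 52.5, 33.0 and 43.1 CPM in WT and at 65.5, 63.1, 54.9 and 55.8 CPM in KO. Every KO library lay above every WT library, and the log2 fold change was 0.46 ± 0.12 (SE, adjusted p = 0.0741). Its partner chain Col9a2 was at 0.04 ± 0.21 and Col9a1 at 0.40 ± 0.32 (SE), and a difference between the chains was not tested. Col9a3 overlaps Tcfl5 on the other strand, so its value is uncertain if the counting did not use strand. Over the alternatives the adjusted p of Col9a3 ranged from 0.00113 to 0.708.

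Col5a3, a minor chain of fibrillar collagen V, was at 7.77, 4.33, 4.94 and 6.20 CPM in WT and at 3.45, 2.97, 2.87 and 3.54 CPM in KO. All KO libraries lay below all WT libraries, with a log2 fold change of -0.85 ± 0.23 (SE, adjusted p = 0.0766, from 0.0219 to 0.750 over the alternatives). Col5a1 and Col5a2, the main chains of that collagen, were at 0.12 ± 0.11 and 0.11 ± 0.13 (SE). Col5a3 was also below 0 at E12.5, E14.5 and E16.5, at -0.15, -0.28 and -0.37, with overlapping groups.

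Col6a3, the large chain of the type VI microfibril, was at 49.2, 45, 54.7 and 43.8 CPM in WT and at 32.6, 43.0, 39.4 and 29.3 CPM in KO. The highest KO library was just below the lowest WT library, and the log2 fold change was -0.42 ± 0.13 (SE, adjusted p = 0.0988, from 0.0164 to 0.750 over the alternatives). Col6a1 and Col6a2 were at 0.00 and -0.04. The ratio of Col6a3 to Col6a2, per kb, was 0.504 ± 0.0423 in WT and 0.390 ± 0.0271 (SD, n = 4) in KO at birth, and 0.498 ± 0.0088 and 0.498 ± 0.0404 (SD, n = 4) at E16.5. These ratios were not tested.

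Col4a3 was at 2.49, 1.68, 1.87 and 1.42 CPM in WT and at 1.25, 0.727, 0.689 and 0.900 CPM in KO. The groups lay apart at a low level, with a log2 fold change of -1.05 ± 0.36 (SE, adjusted p = 0.142). Col4a4, whose start lies 71 bases away, was at 3.48, 2.65, 3.40 and 3.46 CPM in WT and at 2.95, 2.77, 2.13 and 4.02 CPM in KO. These overlap, and its log2 fold change was -0.13 ± 0.26 (SE).

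**Figure D5:**
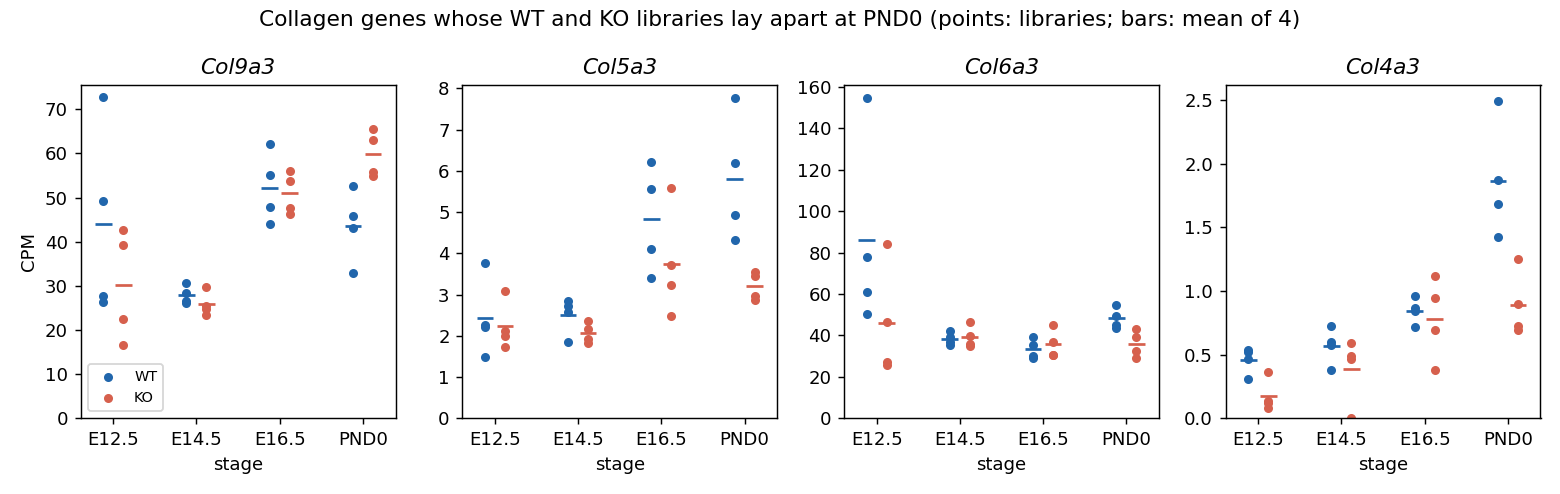
CPM of Col9a3, Col5a3, Col6a3 and Col4a3 by stage, with a point per library and a bar at the mean of 4, WT in blue and KO in red. The 4 genes were chosen because the 2 colours do not overlap at PND0. At each earlier stage the colours overlap in all 4 panels.

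Col4a1 and Col18a1 were not called at birth with edgeR's filtered fit and were called without the filter on low counts. Col4a1 was at 403, 455, 498 and 375 CPM in KO, against 342 to 376 CPM in WT, at 0.27 ± 0.09 (SE, adjusted p = 0.117). Only KO 4, at 375 CPM, fell within the WT range. Col18a1, at 48.2, 51.7, 65.8 and 45.7 CPM in KO, had a log2 fold change of 0.35 ± 0.12 (SE, adjusted p = 0.152). KO library 3 held the highest value of the 8 PND0 libraries in 21 of 42 members at or above 1 CPM, and KO library 4 the lowest in 13. Without KO 3 the collagen median was 0.02 and again 0 were called. The meningeal sum was 253 to 298 CPM in WT and 243 to 301 CPM in KO at birth. The cartilage and bone sum, of a list led by Alpl, was 15.2 to 20.3 CPM in WT and 11.6 to 20 CPM in KO. Neither sum separated the genotypes. The choroid plexus sum of 7 genes, led by Ttr, was 336 to 631 CPM in WT and 627 to 1013 CPM in KO. Its part in the collagen values was not tested.

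Over the 4 stages together the mean KO effect passed the threshold in 0 of 43 tested members by edgeR and 0 by DESeq2, where edgeR called 0.558% of all genes. The unadjusted p was under 0.05 in 4 members and in 12.4% of all genes. The median was -0.09, and -0.02 without WT 3, KO 2 and KO 3 of E12.5. Col4a3 had the smallest adjusted p at -0.75 ± 0.23 (SE, adjusted p = 0.149), followed by Col5a3 at -0.41 ± 0.13 (SE, adjusted p = 0.156). A change of the KO effect with stage was called in 0 of 43 members by edgeR, where it called 0.0256% of all genes, and in 1, Col4a1, by DESeq2. The unadjusted p for that change was under 0.05 in 6 members and in 13.5% of all genes tested.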

How the data were processed

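Polyadenylated RNA from whole brains was sequenced as paired reads, per the labels' protocols. The authors deposited 1 table of raw counts per stage. HISAT2, SAMtools, featureCounts, DESeq2 and the build mm10 are named in the submitters' processing notes, without versions; the annotation and strand setting are not given in the sources used here. Members, lists and comparisons were chosen with earlier results of these data known. Counts were fitted with edgeR 4.0.16 in R 4.3.3 (TMM, filterByExpr with minimum count 10 and total 15, robust quasi-likelihood F test), Benjamini-Hochberg adjusted over all genes tested within each of 9 comparisons, at a threshold of 0.05. Genotypes were compared on the 8 libraries of a stage and WT steps on 8 WT libraries; mean KO effect and stage dependence used all 32. The SE was taken as the size of the log2 fold change over the root of F. CPM use TMM across 32 libraries. Lengths and positions are from GENCODE M21 (GRCm38), and since the strand setting is not known, overlapping genes may share reads. Scripts were tested on simulated data. The 48 pairs of libraries within groups gave a chi-square per degree of freedom of 2.90 to 115 over genes with at least 20 counts, so none were copies. KO library 1 of E12.5 gave 111, 112 and 115 with the rest of its group, which gave 5.57 to 13.8 among themselves. WT library 1 of E16.5 gave 41.8 to 43.1, against 6.24 to 14.7 among the rest of its group.

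Genes named by rule are the leading member of each class per kb and, for each WT step, the 3 called members that rose and the 3 that fell most with a mean of at least 1 CPM. Other members, such as Col1a1, Col4a2, Col25a1, Col5a3 and Col6a3, were named outside this rule. Alternatives were RLE size factors, no filter, DESeq2 1.42.0, a replicate block, a length offset, all 32 libraries in 1 fit, covariates from ribosomal RNA, meningeal and cartilage and bone markers, and each library left out. Chosen after seeing the data were the skin covariate, the fits without 3 E12.5 libraries and the fit with WT 3 as the sole E12.5 library.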

Additional observations from a re-analysis of the deposited data

Results flagged for a closer look

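Of 186 group values of 26 named collagen genes with a group mean of at least 1 CPM, 7 held a library far from the other 3 of its group, by Dixon's gap test at the 95% level. Chance flags about 1 in 20 such groups. Of the 7, 2 were in KO library 3 of PND0. There Col22a1 was at 15.1 CPM against 7.33 to 8.50 in the other 3, and Col24a1 was at 4.6 CPM against 2.25 to 2.44. Col9a1 was at 78.8 CPM in WT library 1 of E12.5, against 20.7 to 25.8 in the others. In KO library 3 of E16.5 it was at 2.51 CPM against 1.79 to 1.86. Col4a6 was at 16.3 CPM in KO library 4 of E16.5, where Krt5 was also high, against 10.1 to 11.2 CPM. Col4a4 was at 2.65 CPM in WT library 2 of PND0, against 3.40 to 3.48. Col28a1 was at 1.21 CPM in KO library 1 of E14.5, against 1.04 to 1.06.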

How the results depend on the processing

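No collagen gene was called for KO against WT at E12.5, E14.5 or E16.5, or for the mean KO effect, under any alternative run. At PND0 the count of 0 became 6 without a filter on low counts, 3 with DESeq2, and 1 each with a replicate block, all 32 libraries in 1 fit, the meningeal covariate and the cartilage and bone covariate. It stayed at 0 with RLE size factors, the length offset and the ribosomal RNA covariate. The shares of all genes called under these alternatives are not given here, so the collagen counts cannot be set against them. Leaving out each PND0 library gave 0 to 1, the 1 being Col9a3 without WT library 2. DESeq2 called 1 member for the change of the KO effect with stage. In the WT steps, all 32 libraries in 1 fit gave 12 calls from E14.5 to E16.5 and 10 from E16.5 to PND0, against 22 and 16. Leaving out each library gave 26 to 31, 19 to 24 and 15 to 16 calls in the 3 steps. At E12.5 the change of Col1a1, -0.30, was 0.47 with the meningeal covariate, 0.13 with the cartilage and bone covariate and 0.28 without the 3 libraries low in Krt5, and that of Col3a1, -0.49, was 0.23 with the meningeal covariate; the cause was not tested. Without litter labels, whether the replicate numbers pair the libraries cannot be told. Of 16 same-numbered WT and KO pairs, 3 had a correlation of deviations above 0.1 and 2 below -0.1. At E12.5 same-numbered pairs ranged from -0.196 to 0.272, and other pairs from -0.358 to 0.202. Of 16 WT libraries, 3 correlated best with the KO library of their number. Members below about 1 CPM rest on few counts, which limits Col10a1, Col17a1, Col19a1 and Col4a3.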

Other observations

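In WT, 26 of the 44 collagen genes were on average highest at E12.5 and 13 at birth. Only Col4a1 and Col4a6 had their highest mean at E14.5, and Col9a3, Col19a1 and Col22a1 at E16.5. This ranks means only, and some were close. Col22a1 was at 24.26 CPM at E16.5 and 24.25 CPM at E14.5, and Col4a1 at 389 CPM at E14.5 and 373 CPM at E12.5. The E12.5 means include WT 1, and for Col9a2 the mean there was 48.9 and the median 35.5 CPM. The same ranking over all genes is not given here. The 13 highest at birth included the low-level chains Col4a3, Col4a4, Col6a4, Col6a5 and Col28a1, along with Col25a1 and Col15a1. The ratio of Col4a5 to Col4a6, the pair on the X chromosome, was 3.49 ± 0.249 in WT at E12.5 and 2.15 ± 0.313 (SD, n = 4) at PND0, per kb of transcript. That of Col6a1 to Col6a2 was 1.12 ± 0.0889 and 1.39 ± 0.105 (SD, n = 4) at the same stages.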
